A study of Mus musculus with 12 samples.

Results

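The genes described are those of the protamines and transition proteins, the small basic proteins that package sperm DNA. Members were taken by gene symbol from both count tables of the study, namely Prm1, Prm2, Prm3, Tnp1, Tnp2 and Hils1. All 6 were present once in each table, among 51826 entries for sperm and 23502 entries for testes. In elongating spermatids, nucleosomal histones are removed from the DNA and replaced by transition proteins, which are in turn replaced by protamines. Their genes are transcribed in round spermatids, and the messengers are stored without translation until elongation, so late transcription and long storage are what this group is known for in the testis. Prm3 carries the protamine name by its position in the protamine locus but encodes an acidic cytoplasmic protein, and Hils1 encodes a linker histone of spermatids.

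RNA-seq was performed on mature sperm of the cauda epididymis from WT and Xap5l KO mice at P56 and on whole testes at P16 from the WT and Xap5 cKO genotypes, with 3 libraries in each of 4 groups. Xap5 and Xap5l, listed as Fam50a and Fam50b, are nuclear proteins that the study examined as regulators of spermatogenic transcription. Sperm libraries held 40198158, 38881197 and 41716085 counts for WT and 43373223, 49355735 and 52308452 for Xap5l KO. Testis libraries held 34063501, 36759054 and 35406808 counts for WT and 32251198, 33754554 and 32995710 for Xap5 cKO. The Xap5l KO line is a global knockout made by CRISPR/Cas9 on the C57BL/6J background. In Xap5 cKO mice a floxed Xap5 allele, made on the same background, was deleted by a Stra8-GFPCre knockin, which acts in germ cells from the spermatogonial stage, so the somatic cells of a whole testis keep the gene. The labels call the controls of both tissues WT, while the paper gives the controls of the Xap5 cKO line as Xap5 fl/Y males, and whether the testis libraries labeled WT carried the floxed allele is not stated. The paper does not say whether the RNA-seq replicates were biological or technical, or whether each was a separate animal. The p-values measure the spread between these libraries.

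The targeted genes were read before the members. In sperm, the Fam50b counts of WT libraries were 574, 440 and 419, and those of Xap5l KO libraries were 18, 23 and 8. The groups did not overlap, and the fall passed the test (log2 fold change -5.15, SE 0.466, adjusted p = 0.0118, edgeR). Fam50a in the same libraries had 548, 705 and 689 counts for WT against 296, 487 and 649 for Xap5l KO, without overlap in CPM (log2 fold change -0.76, SE 0.201, adjusted p = 0.0393, edgeR) and below the fold change threshold. In testes, Fam50a counts were 819, 811 and 988 for WT against 673, 616 and 651 for Xap5 cKO, a log2 fold change of -0.33 (SE 0.126, adjusted p = 0.0495, edgeR) that was below the fold change threshold. The somatic cells and any reads outside the deleted part count toward that value. Fam50b was called lower in the same testes, with counts of 532, 539 and 197 for WT against 6, 0 and 7 for Xap5 cKO (log2 fold change -6.48, SE 0.690, adjusted p = 8.09e-05, edgeR).

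Markers of sperm and late spermatids outside the members were read as a check of the labels. The 8 markers (Odf1, Akap4, Smcp, Gapdhs, Oaz3, Tssk6, Spem1 and Cabs1) summed to 127983, 49242 and 61038 CPM (counts per 1e6 counts, scaled by TMM) in WT sperm and to 66571, 35978 and 47176 CPM in Xap5l KO sperm. In P16 testes the same 8 summed to between 5.58 and 7.56 CPM, with Gapdhs the most abundant and with Smcp and Cabs1 at 0 counts in all 6 libraries. Sperm were thus rich in transcripts of late spermatids, while testes of this age had almost none.

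In sperm all 6 members were abundant enough to be tested, and none was called changed between Xap5l KO and WT. Genes were called where the difference was more than 2-fold and the adjusted p from edgeR (quasi-likelihood test, Benjamini-Hochberg method) was under 0.05, which 1856 of 20945 genes met (8.86%), 1589 of them higher in Xap5l KO sperm (7.59%). The fitted values of the 6 members were nevertheless all above 0, between 0.42 and 0.96 on the log2 scale with a median of 0.72, where all tested genes had a median of -0.08 and 45.7% had a positive value. Only Hils1 had an unadjusted p under 0.05, and 18.6% of all genes were higher at that level. DESeq2 also called 0 members and gave 4 of them an unadjusted p under 0.05, all higher, as it did for 18.4% of the 20945 genes. Only Prm2 had all Xap5l KO libraries above all WT libraries in CPM, which was true of 19.2% of tested genes. The counts of calls rested on single libraries. Without WT replicate 2 or without WT replicate 3 only 2 genes were called in the whole table, without Xap5l KO replicate 2 only 3, without Xap5l KO replicate 1 there were 554, and without Xap5l KO replicate 3 there were 2845. Fewer cells of a type and less RNA per cell cannot be told apart in these bulk samples.

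Hils1 is the linker histone that binds the chromatin of condensing spermatids. Its level was 55.3, 34.3 and 28.1 CPM in WT sperm and 60.3, 52.4 and 83.7 CPM in Xap5l KO sperm. Only WT replicate 1 lay within the range of the Xap5l KO libraries, above the lowest of them, so the groups overlapped. The log2 fold change was 0.74 (SE 0.293, 95% interval 0.09 to 1.39), with an unadjusted p of 0.0303 and an adjusted p of 0.113 from edgeR. Hils1 was the member whose side of the threshold depended on a library, because without WT replicate 1 it was called higher (log2 fold change 1.06, adjusted p = 0.0396, edgeR). Over all alternatives its adjusted p ranged from 0.0396 to 0.348.

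Transition proteins occupy the DNA between histones and protamines. Tnp1, which encodes the smaller and more abundant protein of the pair, was at 574.8, 376.7 and 282.9 CPM in WT sperm, against 491.0, 318.7 and 939.7 CPM with Xap5l KO. The high mean of the Xap5l KO group came from replicate 3, and the other Xap5l KO libraries lay inside the WT range. The log2 fold change of 0.50 (SE 0.417, 95% interval -0.43 to 1.43, adjusted p = 0.413, edgeR) became 0.05 without Xap5l KO replicate 3. Tnp1 shares 40 exonic bases with 1700027A15Rik on the opposite strand, whose counts were 21348, 17426 and 17768 in WT and 33681, 34659 and 62724 in Xap5l KO libraries. The handling of strand is not given in the sources used here, so reads from the shared bases cannot be told apart and the level of Tnp1 is uncertain to that extent.

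Tnp2 was at 1206, 700.8 and 812.7 CPM in WT sperm and at 1279, 873.5 and 1498 CPM in Xap5l KO sperm. WT replicate 1 exceeded Xap5l KO replicate 2, so these groups overlapped too. With a log2 fold change of 0.42 (SE 0.330, 95% interval -0.31 to 1.16, adjusted p = 0.382, edgeR), Tnp2 had the smallest fitted difference of the 6 members.

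Prm1, present in the sperm of all mammals, was at 1192, 788.2 and 838.1 CPM in WT sperm and at 1659, 1026 and 1906 CPM in Xap5l KO sperm. The overlap was between WT replicate 1 and Xap5l KO replicate 2 alone. The log2 fold change was 0.70 (SE 0.333, 95% interval -0.04 to 1.45, adjusted p = 0.169, edgeR).

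Prm2, whose protein is made as a precursor and trimmed on the DNA, was at 13993, 8241 and 8292 CPM in WT sperm and at 23961, 14383 and 21118 CPM in Xap5l KO sperm. The groups did not overlap, although WT replicate 1 and Xap5l KO replicate 2 were close. The log2 fold change was 0.96 (SE 0.433, 95% interval -0.01 to 1.93, adjusted p = 0.151, edgeR), or 1.95-fold with an interval of 0.996 to 3.81. DESeq2 gave Prm2 an adjusted p of 0.00764 at a log2 fold change of 0.98, under the fold change threshold, and the adjusted p of Prm2 ranged from 0.00764 to 0.402 over the alternatives. Prm2 alone took 0.987% ± 0.140 (SD, n = 3) of all counts in WT sperm and 1.97% ± 0.370 (SD, n = 3) in Xap5l KO sperm. The 6 members together took 1.22% ± 0.163 and 2.32% ± 0.497 (SD, n = 3 each). Shares of all counts also depend on mitochondrial genes. These took 20.2, 24.0 and 19.3% of counts in WT and 27.4, 18.6 and 10.5% in Xap5l KO libraries, and their part in the shares was not tested.

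Prm3 was at 94.97, 60.1 and 34.3 CPM in WT sperm and at 130.0, 78.8 and 111.2 CPM in Xap5l KO sperm. Its WT libraries were, relative to their mean, the most scattered of the 3 Prm genes, and WT replicate 1 exceeded Xap5l KO replicate 2. The log2 fold change was 0.76 (SE 0.353, 95% interval -0.03 to 1.55, adjusted p = 0.163, edgeR).

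**Figure D1:**
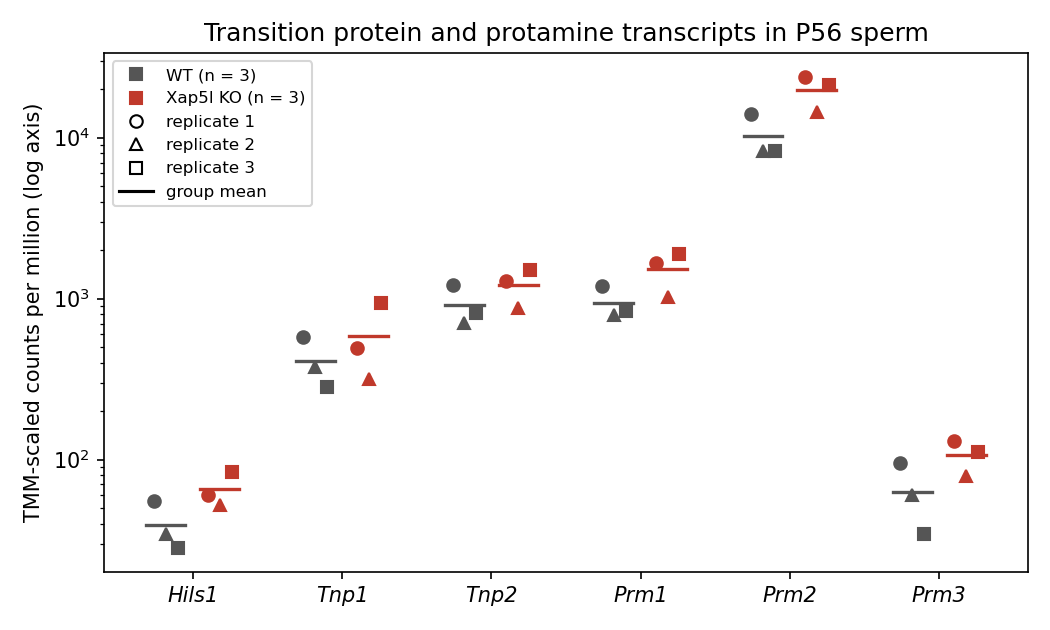
Level of each of the 6 members in each sperm library, in TMM-scaled CPM on a log axis, with WT in gray, Xap5l KO in red, replicate numbers as symbols and group means as lines (n = 3 per group). The Xap5l KO mean is above the WT mean for all 6 genes, but only for Prm2 do the libraries of the groups not overlap, and Xap5l KO replicate 3 stands above the others for Tnp1.

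Compared per length, the messengers differed over a wide range. Dividing CPM by the summed length of all annotated exons in kilobases, Prm2 had the highest level in WT sperm, 11382 ± 3699 CPM per kb (SD, n = 3). Prm1 followed at 1645 ± 385 and Tnp2 at 1636 ± 479, and these were not separated by their spread. Tnp1, at 942 ± 341, was also within 1 SD on each side of Tnp2, whereas Prm3 at 154 ± 74.2 and Hils1 at 45.4 ± 16.5 CPM per kb stood apart below. The order was the same in Xap5l KO sperm, with Prm2 at 22171 ± 5502, Prm1 at 2680 ± 794, Tnp2 at 2196 ± 572, Tnp1 at 1334 ± 734, Prm3 at 260.1 ± 63.2 and Hils1 at 75.8 ± 18.9 CPM per kb (SD, n = 3 each). Again only Prm1, Tnp2 and Tnp1 were neighbors whose ranges of 1 SD met.

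Ratios of counts within a library do not depend on the scaling between libraries. For each count of Prm1, WT sperm had 11.7, 10.5 and 9.89 counts of Prm2, against 14.4, 14.0 and 11.1 with Xap5l KO. The lowest Xap5l KO ratio fell inside the WT range, so the proportion of the protamine messengers was not separated by genotype. The ratio of Tnp2 to Prm1 was 1.01, 0.889 and 0.970 for WT against 0.771, 0.851 and 0.786 for Xap5l KO, and here the groups did not overlap. The ratio of Tnp1 to Prm1 was 0.482, 0.478 and 0.338 in WT and 0.296, 0.311 and 0.493 in Xap5l KO sperm, with overlap, as for Prm3 and Hils1 against Prm1 and for Tnp1 against Tnp2. These 6 ratios are a description and were not tested. An exact two-sided test of 3 libraries against 3 can give no p below 0.1, even with complete separation. How often ratios of other gene pairs separate the genotypes was not measured, so the Tnp2 to Prm1 ratio is not a result of genotype.

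The members stood between other late transcripts. Of the 8 markers of sperm and late spermatids, only Akap4, of the fibrous sheath, was called, with a log2 fold change of 1.09 (SE 0.301, adjusted p = 0.0452, edgeR), and the median of the 8 was -0.28. Among all tested genes, 8.86% were called. Smcp, the mitochondrial capsule protein and the most abundant of them, had a log2 fold change of -0.97 (SE 0.591, 95% interval -2.29 to 0.35). The fitted values of all 6 members lay inside the range of these 8 transcripts of the same cell stage.

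**Figure D2:**
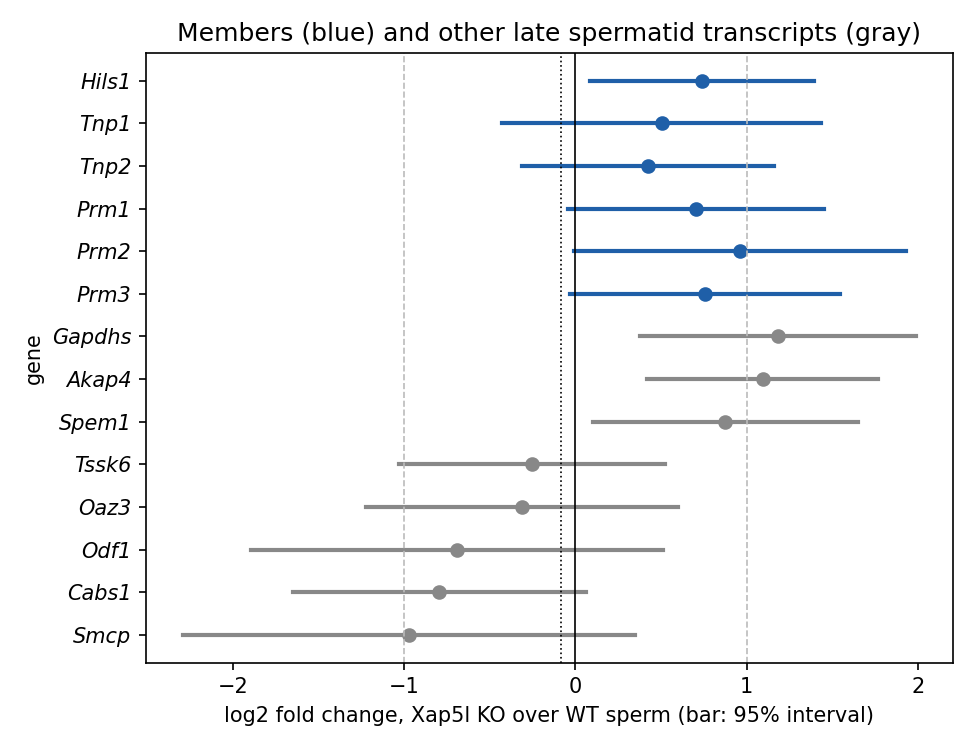
Log2 fold change between Xap5l KO and WT sperm (points) with 95% intervals (bars) for the 6 members in blue and 8 other late spermatid transcripts in gray, with dashed lines at the 2-fold threshold and a dotted line at the median of all tested genes (-0.08). The members lie between 0.42 and 0.96, and the gray transcripts spread from -0.97 for Smcp to 1.18 for Gapdhs.

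Likeness of pattern was measured as the root-mean-square difference between log2 CPM values centered over the 6 sperm libraries, among genes with a mean of at least 10 CPM (8118 compared with each member). The nearest genes to Prm1 were 1700024P04Rik (0.0677), 1700034E13Rik (0.0954) and Tctex1d1 (0.0980), and those to Prm2 were Txndc8 (0.0760), Mea1 (0.0790) and Lrrc28 (0.0959). Those nearest to Tnp2 were Carhsp1 (0.0614), Tctex1d1 (0.0788) and 1700001K19Rik (0.0820), and those nearest to Hils1 were Plcz1 (0.0643), Suv39h2 (0.0715) and Aven (0.0822). Prm3 and Tnp1 had no gene as close. The nearest to Prm3 were Gm6760 (0.177), Scp2d1 (0.184) and Gm31166 (0.188), and those to Tnp1 were Ccdc169 (0.115), Gm21967 (0.134) and Klk1b8 (0.146). Among the members, Prm1 and Tnp2 were the most alike (0.145) and Prm2 and Tnp1 the least (0.468).

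Genes that act with the members were grouped in 4 lists. Of the histone exchange list, 21 of 23 genes were tested in sperm, 3 were higher and 1 was lower, with a median log2 fold change of 0.43. In the whole sperm table, 8.86% of tested genes were called and 7.59% were called higher. The bromodomain protein Brdt, which binds acetylated histones in spermatids, rose from 26.7 ± 6.85 to 68.5 ± 13.5 CPM (SD, n = 3 each), a log2 fold change of 1.36 (SE 0.253, adjusted p = 0.0163, edgeR). The remodeler Chd5 rose by 1.22 (SE 0.297, adjusted p = 0.0321), and the ubiquitin ligase Rnf8 fell by 1.12 on the log2 scale (SE 0.247, adjusted p = 0.0236). The other gene called higher was below the 5 CPM set for naming. Morf4l1, the most abundant gene of the list, was not called (0.43, SE 0.221).

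Of 15 regulators of spermatid transcription, 3 were higher, with a median of 0.52, where 7.59% of all tested genes were called higher. These were Gtf2a1l and Taf7l, subunits of the general transcription machinery in germ cells, and the kinesin Kif17, with log2 fold changes of 1.55 (SE 0.297), 1.51 (SE 0.253) and 1.13 (SE 0.283). Crem, whose activator isoform drives protamine and transition protein genes, was, with all isoforms in 1 count, at 93.8 ± 34.4 CPM in WT sperm, against 128 ± 37.2 CPM with Xap5l KO (log2 fold change 0.45, SE 0.307, adjusted p = 0.315, edgeR). It is named after its values were seen, as the regulator best known for these genes.

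Of 21 genes for messenger storage and translation, 6 were higher, with a median of 0.59, where 7.59% of all tested genes were called higher. Those with the largest rise were Tdrd6 of the chromatoid body (log2 fold change 1.54, SE 0.318), the poly(A)-binding protein Pabpc2 (1.502, SE 0.323), the poly(A) polymerase Papolb (1.46, SE 0.288) and the helicase Ddx25 (1.35, SE 0.270). Ybx2, the Y-box protein that holds protamine messengers in store, had a log2 fold change of 1.04 without passing the test (SE 0.376, adjusted p = 0.0901, edgeR), and the most abundant gene of the list, Pabpc1, was not called (0.35, SE 0.385). Of 16 protein partners and modifiers, 2 were higher, namely Hspa2, a chaperone of transition proteins (1.67, SE 0.358), and the reductase Txnrd3 (1.19, SE 0.238), with a median of 0.58. This count stands beside the same 7.59% of all tested genes. Gpx4, the selenoprotein that cross-links protamines and the most abundant of these, had a log2 fold change of 0.54 without a call (adjusted p = 0.177, edgeR). Without both libraries numbered 1, an alternative chosen after the data were seen because they had the smallest TMM factors, 0 genes were called in the whole table.

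Markers of other cells differed between the sperm groups as well. For scale, 7.59% of all tested genes were called higher and 267 of 20945 were called lower. Of 7 round spermatid markers, 6 were higher in Xap5l KO sperm, by size first Spaca1, Acr, Izumo1 and Tssk1, and the 7 summed to 784, 478 and 510 CPM for WT and to 1210, 978 and 927 CPM for Xap5l KO, with Tssk2 the most abundant. Of 7 pachytene spermatocyte markers 3 were higher (Hspa2, Adam2 and Ldhc) and 4 were not called, among them Piwil1, which was lower in its mean (log2 fold change -0.97, SE 0.371, adjusted p = 0.104, edgeR), and the 7 summed to 2073, 1327 and 1216 CPM for WT against 2264, 2316 and 3016 CPM for Xap5l KO, led by Pgk2. Both sums were higher in all 3 Xap5l KO libraries than in any WT library, as for Prm2.

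Leukocyte markers had a lower sum in all 3 Xap5l KO libraries. They summed to 943, 858 and 922 CPM for WT against 202, 423 and 564 CPM for Xap5l KO, led by Lyz2 (means of 565.8 and 213.4 CPM). Of the 7, 2 were called lower, of which Cd74 was above 5 CPM, while 5 were not called. Among those not called, S100a8 was higher in its mean (log2 fold change 0.48, SE 0.424, adjusted p = 0.444, edgeR). The 5 erythroid markers, led by Hbb-bs, summed to 22836, 4506 and 6965 CPM for WT against 5548, 1643 and 3750 CPM for Xap5l KO, with 0 called by edgeR and WT replicate 1 far above the rest. The 8 epididymal markers, led by Crisp1, with Lcn9 at 0, summed to between 5953 and 8064 CPM for WT and between 4220 and 5877 CPM for Xap5l KO. Peritubular myoid markers summed to 93.1, 66.1 and 73.3 CPM for WT against 145, 124 and 153 CPM for Xap5l KO, led by Actg2 (log2 fold change 0.92, SE 0.226, adjusted p = 0.0325, edgeR, below the fold change threshold). Actg2 alone made up most of that sum (70.9 and 133.9 CPM), and the other myoid markers did not follow it, with Acta2 at 0.15 (SE 0.297) and Myh11 at -0.78 (SE 0.400). Leydig markers, led by Insl3, summed to 33.6, 19.3 and 15.1 CPM for WT against 14.7, 9.17 and 7.24 CPM for Xap5l KO. Neither sum overlapped between genotypes, and 0 genes of either list were called by edgeR. Sums for spermatogonia and Sertoli cells, led by Kit and Sox9, lay between 6.35 and 26.0 CPM and overlapped, with 1 Sertoli marker called (lower, under 5 CPM). The part of these cells in the levels of the members was not tested.

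In testes at P16 the members were at the limit of detection in both genotypes. Prm2 and Prm3 had 0 counts in all 6 libraries, where a count of 0 allows up to 0.0816 to 0.0930 CPM (3 counts of the total, for counting error only). Prm1 counts were 0, 4 and 0 for WT against 3, 0 and 0 for Xap5 cKO, and Tnp1 counts were 0, 6 and 5 against 0, 2 and 0. Tnp2 had 12 counts in WT replicate 2 and 0 in every other library. Hils1 counts were 13, 9 and 2 for WT against 10, 2 and 0 for Xap5 cKO, so that its groups overlapped. Of the 36 member values 25 were 0 and the highest was 13.

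None of the 6 members passed the filter on low counts, and a difference between WT and Xap5 cKO testes was not detectable at this depth. Among 16821 tested genes, 2535 were called (15.1%), 1837 of them lower in Xap5 cKO testes (10.9%). Without the filter, edgeR tested 4 members and DESeq2 also 4, and both called 0 and gave 0 of them an unadjusted p under 0.05. Levels in sperm and testes were normalized separately. Set side by side without a test, Prm2 was between 8241 and 23961 CPM over the sperm libraries and at 0 counts in every testis library.

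Genes that act before and around the members did change in these testes. Of 15 regulators of spermatid transcription, 8 were lower in Xap5 cKO testes, with a median log2 fold change of -1.07 where all tested genes had -0.01. In the whole testis table, 10.9% of tested genes were called lower. Gtf2a1l, Ybx2, Rfx2 and Tcfl5 fell most, with log2 fold changes of -4.99 (SE 0.402), -3.18 (SE 0.282), -2.55 (SE 0.211) and -1.69 (SE 0.185). Taf7l, the most abundant over both genotypes, had a log2 fold change of 0.13 (SE 0.0871, adjusted p = 0.245, edgeR). In WT testes alone Ybx2 was more abundant, at 315 CPM against 254 CPM for Taf7l. Crem fell from 49.98 ± 3.97 to 21.8 ± 5.72 CPM (SD, n = 3 each), a log2 fold change of -1.20 (SE 0.171, adjusted p = 0.000377, edgeR), again without separating its isoforms.

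Of 21 storage and translation genes 10 were lower, with a median of -0.98, where 10.9% of all tested genes were called lower. Tdrd6, at 81.0 ± 47.5 CPM in WT and 1.33 ± 0.398 CPM in Xap5 cKO testes, and Papolb, at 32.4 ± 12.3 and 2.50 ± 1.12 CPM (SD, n = 3 each), were among them with Piwil1 and Pabpc2, and the most abundant gene, Pabpc1, had a log2 fold change of -1.17 (SE 0.0900). Of 20 tested histone exchange genes 3 were lower, Chd5 (-1.77, SE 0.220), Nasp (-1.27, SE 0.0838) and Brdt (-1.01, SE 0.139), and the median was -0.49. H3f3b, the most abundant, was not called (-0.17, SE 0.0596). Of 16 partners and modifiers 4 were lower, namely Hspa2, Txnrd3, Camk4 and Hspa4l, with log2 fold changes of -2.07 (SE 0.225), -1.38 (SE 0.170), -1.35 (SE 0.325) and -1.22 (SE 0.0821). Ppp1cc, the most abundant over both genotypes, was at -0.21 (SE 0.0762). In WT testes alone Hspa2 was more abundant, at 556 CPM against 526 CPM for Ppp1cc. Of 68 genes of the 4 lists tested in both tissues, 12 were called lower here and higher in Xap5l KO sperm (17.6%), against 376 of all 13959 genes tested in both (2.69%), a comparison made after the values were seen and without a test. Among genes called lower in testes the shares were closer, 12 of 24 (50%) for the lists and 376 of 1512 (24.9%) for all. They were Brdt, Chd5, Gtf2a1l, Kif17, Tdrd6, Pabpc2, Papolb, Ddx25, Hspa2, Txnrd3, Ybx3 and Mael.

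Markers of spermatocytes were lower as well, in part through the same genes, since Hspa2, Piwil1 and Mybl1 are in the pachytene markers and in 1 of the 4 lists each, and Ybx2 is in 2 of the 4. The 7 pachytene markers, led by Hspa2, summed to 1972, 1908 and 992 CPM in WT and to 217, 214 and 282 CPM in Xap5 cKO testes, and 6 were called lower, among them Piwil1, Ldhc, Pgk2 and Adam2. Round spermatid markers, led by Acr in WT, summed to 36.9, 35.8 and 18.6 CPM in WT and to 10.4, 12.6 and 12.4 CPM in Xap5 cKO testes. Only Acr of 4 tested was called, at 20.5 ± 8.15 CPM in WT and 0.112 ± 0.143 CPM in Xap5 cKO testes (SD, n = 3 each), while Spaca1, next in level, was at 7.59 ± 2.11 and 10.3 ± 0.892 CPM and not called. WT replicate 3 was nearest to the Xap5 cKO libraries in both sums. For scale, 10.9% of all tested genes were called lower in these testes and 698 of 16821 were called higher. Of the other markers, 2 of 7 for spermatogonia (Stra8 and Sohlh1, with Uchl1 the most abundant) and 1 of 2 tested for epididymis (Aqp9, the most abundant over both genotypes) were lower, while the other epididymal marker, Cst8, was higher below the fold change threshold (0.95, SE 0.268, adjusted p = 0.0146, edgeR). Higher were 1 of 6 Sertoli (Amh, with Cldn11 the most abundant), 2 of 5 Leydig (Insl3, the most abundant, and Hsd3b1) and 4 of 5 tested leukocyte markers (among them Csf1r, Cd74 and Lyz2, the most abundant). Sertoli markers summed to 882, 934 and 982 CPM in WT against 1538, 1536 and 1594 CPM in Xap5 cKO testes, and 5 of the 6 were higher with an adjusted p of at most 0.000178 (edgeR), 4 of them below the fold change threshold. Sums were also higher in all 3 Xap5 cKO libraries for Leydig (302, 177 and 285 against 584, 659 and 312 CPM), peritubular myoid (551, 465 and 602 against 706, 706 and 658 CPM) and leukocyte markers (96.0, 64.4 and 71.2 against 174, 184 and 143 CPM). Those of spermatogonia were lower in all 3 (707, 738 and 800 against 496, 500 and 464 CPM), although Gfra1 of that list was higher below the fold change threshold (0.56, SE 0.188, adjusted p = 0.0321, edgeR). These sums of other cells thus differed between the same libraries in which the list genes were lower. None of 4 peritubular myoid (led by Acta2) or 5 erythroid markers (led by Hbb-bs) was called by edgeR. The part of cell numbers in these values was not tested.

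Of the 6 members, 4 lie side by side on chromosome 16 (GRCm38, GENCODE M21), all on the minus strand and within 17904 bp. In order they are Tnp2 (10787936 to 10788660), Prm3 (10790505 to 10790914), Prm2 (10791380 to 10796134) and Prm1 (10796326 to 10805839). Despite this shared position, Prm2 and Prm3 differed in level per length by more than their spread in both sperm groups. Tnp1 lies alone on chromosome 1 (73015074 to 73015909, minus strand), with no other protein-coding gene within 100 kb. Hils1 is a single exon on chromosome 11 (94967593 to 94968456, plus strand) inside the span of Sgca, which is on the minus strand and shares no exonic base with it.

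**Figure D3:**
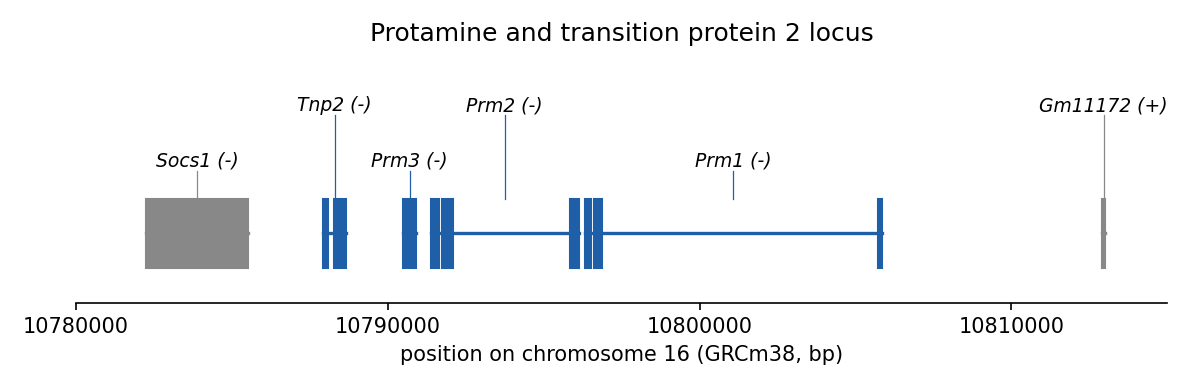
Map of the protamine locus on chromosome 16 (GRCm38) by position in bp, with exons of the members as blue boxes, introns as lines, and gray boxes for the whole span of the neighboring protein-coding genes Socs1 and Gm11172. Tnp2, Prm3, Prm2 and Prm1 lie in this order on the minus strand.

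Neighbors of the members were not called in sperm. Within 100 kb of the protamine locus, Clec16a (13.5 CPM in WT and 17.4 in Xap5l KO sperm) and Socs1 (0.764 and 0.869 CPM) were tested, while Rmi2 and Gm11172 were under the filter. Around Hils1 all 6 neighbors were tested, and their means in WT sperm ran from 1.45 CPM for Sgca to 241 CPM for Pdk2. None of these 8 was called by edgeR in sperm, where 8.86% of all tested genes were called. In testes, where the members were near 0 counts, 9 neighbors were tested and 2 were called lower in Xap5 cKO, Rmi2 (log2 fold change -1.52, SE 0.263, adjusted p = 0.00113) and Sgca (-1.90, SE 0.439, adjusted p = 0.00552, edgeR). Among all tested genes in testes, 10.9% were called lower.

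Promoters are shown for Tnp1 and Prm2, the members least alike in pattern, and for Tnp2, which lies in the locus of Prm2, as the 150 bases before the transcription start in RefSeq (GRCm38.p6), which held an entry for 6 of 6 members. The annotations differ in their starts. The RefSeq start of Prm2 lies inside the GENCODE span, which has a further exon upstream at 10795862 to 10796134, and the Prm1 window overlaps a GENCODE exon of Prm1 (10796626 to 10796886). The lengths used for CPM per kb include all GENCODE exons, so they count exons upstream of the RefSeq starts of these genes. Capitals mark matches on either strand to TGANNTCA, a form of the cyclic AMP response element, to TATAA, to TATATA, and to CCCCGCCC.
Tnp1, chr1:73015900-73016049, minus strand: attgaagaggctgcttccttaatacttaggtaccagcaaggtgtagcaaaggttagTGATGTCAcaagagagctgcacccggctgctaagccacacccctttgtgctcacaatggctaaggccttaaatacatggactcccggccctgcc
Tnp2, chr16:10788656-10788805, minus strand: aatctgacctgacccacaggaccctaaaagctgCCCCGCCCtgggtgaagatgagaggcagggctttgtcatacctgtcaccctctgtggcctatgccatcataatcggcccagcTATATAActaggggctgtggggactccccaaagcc
Prm2, chr16:10792106-10792255, minus strand: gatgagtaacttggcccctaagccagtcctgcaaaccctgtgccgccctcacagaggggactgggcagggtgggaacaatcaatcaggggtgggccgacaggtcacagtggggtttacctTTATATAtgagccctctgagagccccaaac

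TGANNTCA was found in 3 of the 6 promoters, beginning 94 bases before the start in Tnp1, 64 in Prm1 and 60 in Prm3, and in 8.37% of 32851 promoters of the same length. The full palindrome TGACGTCA, which is included in TGANNTCA, was in none of the 6 and in 1.36% of all. TATAA was found in Prm1, Prm2 and Tnp2 (14.2% of all), beginning 32, 30 and 33 bases before the start, and TATATA, which overlaps it in Prm2 and Tnp2, was in 2.97% of all. CCCCGCCC was found in Tnp2 (13.7% of all), and none of the 5 motifs was found in Hils1. The members thus do not share a single arrangement of these letters. A match describes the sequence and is not evidence of binding.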

How the data were processed

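Poly(A) RNA of 12 libraries was sequenced, and the authors deposited raw counts per gene in 1 table per tissue, mapped to GRCm38 with HISAT2 2.1.0 after Trimmomatic 0.36, per the labels. The paper names the NEBNext Ultra II RNA kit and StringTie for assembly. Which tool made the counts and how strand was used are not given in the sources used here. Library totals ranged from 32251198 to 52308452 counts.

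Each table was fitted on its own with edgeR 4.0.16 (filterByExpr, TMM, quasi-likelihood test, genotype as the only term) in R 4.3.3, and p-values were adjusted by Benjamini-Hochberg over all tested genes. SE and 95% intervals belong to log2 fold changes. DESeq2 1.42.0 was an alternative. The test was tried on simulated data changed 4-fold, where 83.2% of 196 changed genes were called in the sperm design and 90.9% of 198 in the testis design. The members in sperm had fitted differences of 1.34-fold to 1.95-fold, so these shares do not tell how well differences of that size are found. In the sperm table, 94 repeated names were kept as separate entries. Exon lengths came from GENCODE M21.

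The members and lists were chosen with earlier results of these data known. Named genes were all members, up to 4 called genes per list with the largest log2 fold change at a mean of at least 5 CPM in either genotype, the most abundant gene of each list, neighbors within 100 kb, the 3 genes nearest in pattern to each member, and the targeted genes. Crem, Mybl1, Ybx3, Mael, Piwil1, Acta2, Myh11, Cnn1 and S100a8 in sperm, and Spaca1, Cst8 and Gfra1 in testes were named after their values were seen. The alternatives were DESeq2, RLE factors, library size alone, no filter, at least 10 counts in every library, a replicate block, an adjusted p under 0.01, no fold change threshold, leaving out mitochondrial genes and the 10 entries with most counts (Prm2, at rank 7 in sperm, was kept as a member), and leaving out each library. Figures were drawn with matplotlib 3.10.9 in Python 3.11.15.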

Additional observations from a re-analysis of the deposited data

How the results depend on the processing

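The log2 fold changes of the 6 members in sperm stayed above 0 under every alternative run. Prm1 ranged from 0.58 to 0.94, Prm2 from 0.80 to 1.25, Prm3 from 0.45 to 1.17, Tnp1 from 0.05 to 1.01, Tnp2 from 0.26 to 0.73 and Hils1 from 0.54 to 1.21. The number of members called in sperm was 0 except without WT replicate 1 (Hils1), so that leaving out 1 library gave 0 to 1. The number of genes called in sperm, 1856, was 0 at an adjusted p under 0.01 and 0 without both libraries numbered 1, and it ranged from 2 to 2845 when 1 library was left out. The fit without both libraries numbered 1 was chosen after the data were seen. The cause of these differences was not tested. In testes, 8936 genes were called without a fold change threshold, in place of 2535. With a replicate block, 1294 genes were called in sperm and 2443 in testes, and 0 members in either. The replicate numbers were not taken as pairs, since same-numbered libraries correlated in their deviations from the group means by 0.149, -0.0229 and -0.0809 in sperm and by 0.0125, -0.0141 and -0.00805 in testes. In testes 25 of 36 member values were 0 counts, and levels up to the 0.0816 to 0.0930 CPM that a count of 0 allows are not seen at this depth.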

Other observations

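Set against other late spermatid messengers within a library, the protamine messengers gave mixed ratios. These ratios were chosen after the values were seen and were not tested. Over the 8 late markers, the Prm2 ratio in Xap5l KO sperm was 0.857 to 3.83 times that in WT sperm by geometric means, and the Prm1 ratio 0.698 to 3.12 times. For each count of Smcp, WT sperm had 0.175, 0.292 and 0.219 counts of Prm2, against 0.588, 0.852 and 1.26 with Xap5l KO, the highest quotient of the 8. For each count of Gapdhs, the values were 6.35, 6.73 and 5.62 for WT against 5.04, 4.35 and 6.90 for Xap5l KO, the lowest, with overlap. Against 5 of the 8 markers (Odf1, Smcp, Oaz3, Tssk6 and Cabs1) the Xap5l KO ratios of Prm2 all exceeded the WT ratios, as did those of Prm1, and against Akap4, Gapdhs and Spem1 the genotypes overlapped for both. Those 5 had log2 fold changes below 0 (-0.97 to -0.25), and the markers with overlap were above 0 (0.88 to 1.18). All ratios of a member share its count, so these are not 5 separate results. The share of all genes that separate in this way was not measured. The cause was not tested.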
